A study of Homo sapiens with 12 samples.

Results

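The transcripts described here are those of 8 interleukin-1 family genes: the ligands IL1A, IL1B, IL18 and IL33, the antagonist IL1RN, the signalling receptor IL1R1, its co-receptor IL1RAP, and IL1RL1, the receptor for interleukin-33. They were taken by a list of gene symbols, with no threshold on a measured value, and all 8 are among the 16383 genes listed. RNA was sequenced from IMR90, an established line of human lung fibroblasts labelled wild type, in 4 groups of 3 libraries. Proliferating cells had no treatment. The other groups were irradiated with 20 Gy over 10 min and harvested on day 11. They received DMSO, 2 µM palbociclib (which blocks the cell cycle kinases CDK4 and CDK6) or 2 µM ruxolitinib (an inhibitor of the Janus kinases JAK1 and JAK2) on days 4, 6, 8 and 10. The labels call the irradiated cells senescent, a state of lasting growth arrest. The proliferating cells received neither DMSO nor an inhibitor, so irradiation, DMSO and time in culture cannot be told apart in comparisons with proliferating cells.

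Interleukin-1α and interleukin-1β are inflammatory cytokines that bind the same receptor, IL1R1. The bound receptor recruits IL1RAP, and the pair signals through MYD88 and the IRAK kinases to NF-κB, which switches on chemokines, cytokines and proteases. IL1RN blocks IL1R1 without signalling. Interleukin-33 uses IL1RL1 with the same co-receptor, and interleukin-18 uses receptors of its own. In senescent fibroblasts, interleukin-1α is known as an upstream driver of the senescence-associated secretory phenotype, the set of inflammatory proteins these cells release. Interleukin-1β and interleukin-18 are made as precursors that caspase-1 cuts in the inflammasome, a step that RNA levels do not show.

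Over the listed genes the libraries held 14106799 to 21762412 reads. Values are the authors' normalized counts, which are reads divided by a factor per library, with no correction for transcript length, so levels are compared between groups and not between genes. Libraries are named by the number in their column, A116 to A127. All 10 fibroblast markers exceeded a mean of 10 normalized counts, and their summed level was lowest with DMSO (408900 to 419600), then ruxolitinib (515900 to 520000) and palbociclib (651700 to 683900), and highest in proliferating cells (822400 to 854900). The first principal component held 68.2% of the variance and the second 16.3%. Nothing in the labels says that the libraries of a group came from separate cultures, so p-values measure only the spread between these samples, which may be technical.

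Irradiated cells with DMSO held more IL1A, IL1B, IL1R1, IL1RL1 and IL18 RNA than proliferating cells, and irradiated cells with palbociclib held less of the same 5 transcripts than those with DMSO. With ruxolitinib, IL1RL1 and IL1R1 were lower than with DMSO. IL1A, IL1B and IL18 did not pass the test there, and IL1RAP passed in neither inhibitor comparison with DMSO. A gene was tested when its mean over the 12 libraries was at least 10 normalized counts and was called at an adjusted p under 0.05 in a limma fit. Of the 8 genes, 6 were tested. IL1RN and IL33 fell below the minimum. The minimum is a mean over all 4 groups. IL1A, IL1RL1 and IL18 averaged 5.10, 8.16 and 9.16 in proliferating cells and reached it only through groups where they were higher. A low gene without such a rise could not enter, so the minimum itself shapes the counts and medians of the 6. Between DMSO and proliferating cells, 5 of the 6 were called, all higher, where 72.4% of the 11242 genes tested were called, 33.0% higher and 39.3% lower. Their median log2 fold change was 1.93, against -0.05 over all genes tested. Between palbociclib and DMSO, 5 of 6 were called, all lower, where 48.3% of genes were called, 26.0% higher and 22.3% lower. Their median log2 fold change was -2.28, against 0.02 over all genes. Between ruxolitinib and DMSO, 2 of 6 were called, both lower, where 4.52% of genes were called, 1.1% higher and 3.42% lower. Their median was -0.29, against -0.003 over all genes. These 3 comparisons share the DMSO libraries, so a DMSO library that stands high or low moves all of them.

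**Figure D1:**
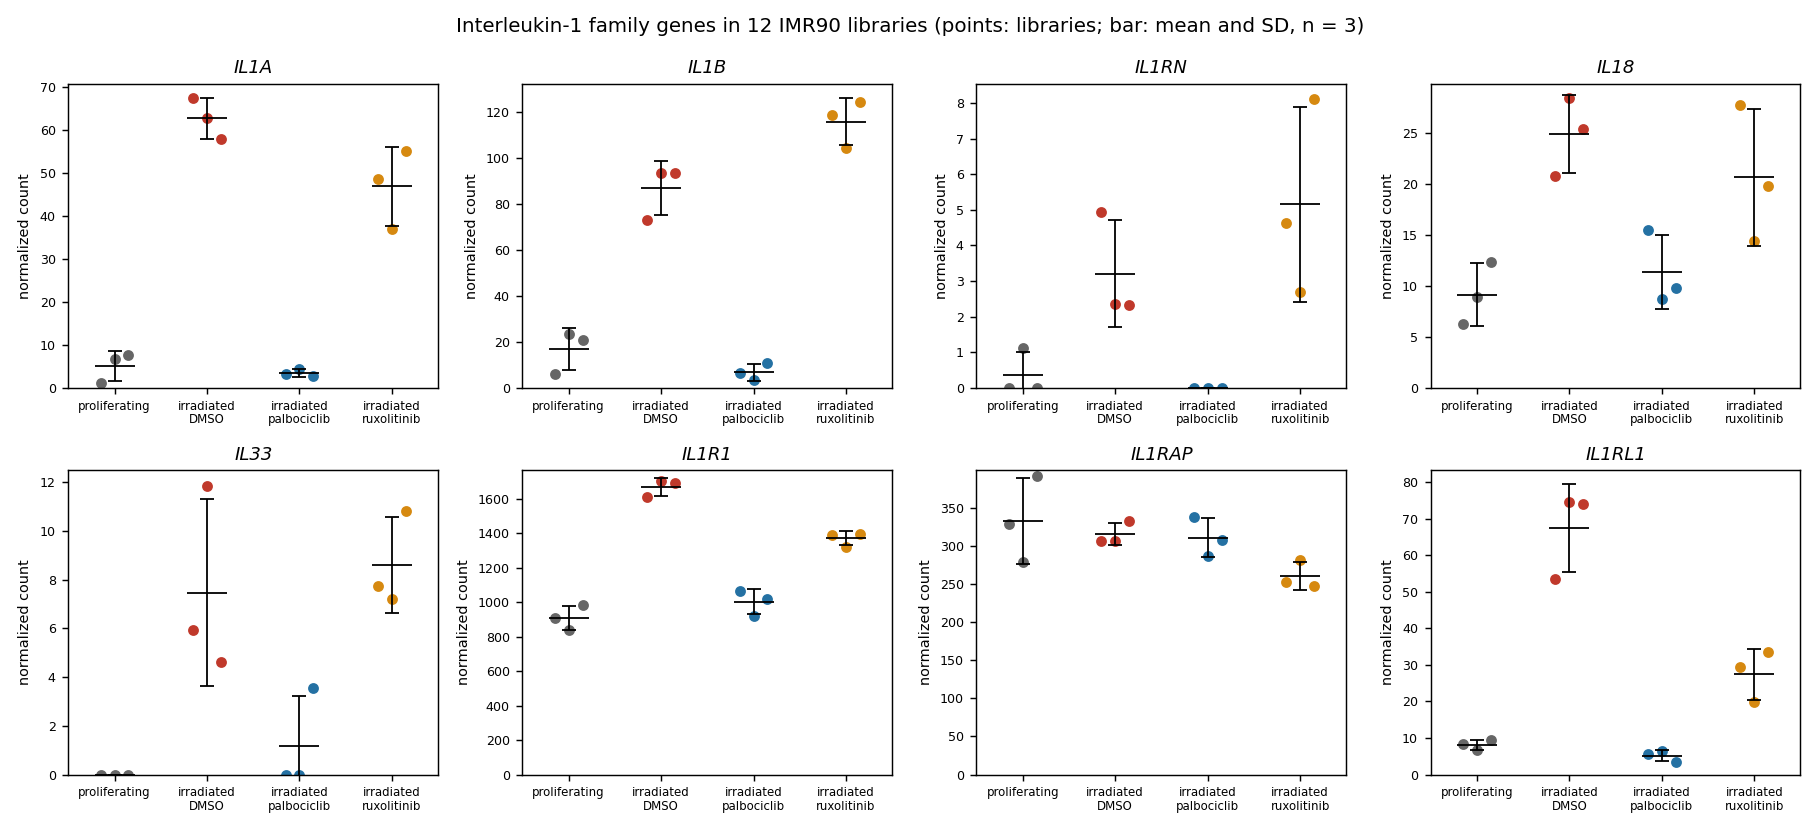
Normalized counts (vertical axes, linear, one scale per gene) of the 8 genes in 12 libraries by group. Points are libraries and bars the mean and SD of 3 libraries, with bars cut at 0. IL1A, IL1B and IL1RL1 sit high with DMSO and low in proliferating and palbociclib cells, while the IL1RAP groups lie close together.

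IL1A encodes interleukin-1α, which is active at the membrane or when released without caspase-1 cleavage. Its gene lies on chromosome 2 at 112773925 to 112784493 of GRCh38, on the minus strand, and its 2017 exonic bases are shared with no other annotated gene. The 250 bases before its RefSeq start are shown because IL1A had the largest log2 fold change of the 6 tested genes both with DMSO against proliferating cells and with palbociclib against DMSO. The capitals mark a match to the AP-1 motif TGANTCA, at 12 to 6 bases before the start, and a TATAAA much farther upstream. A further AP-1 match lay 38 to 44 bases after the start, counting the start base as 0.
IL1A, GRCh38.p14, chr2:112784494-112784743, minus strand: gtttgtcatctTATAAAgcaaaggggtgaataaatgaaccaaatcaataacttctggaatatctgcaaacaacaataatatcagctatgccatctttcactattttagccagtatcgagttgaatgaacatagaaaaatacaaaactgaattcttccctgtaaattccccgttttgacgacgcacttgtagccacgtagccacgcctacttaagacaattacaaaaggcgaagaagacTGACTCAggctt

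IL1A stood at 1.04, 6.65 and 7.62 normalized counts in proliferating libraries and at 67.3, 62.7 and 57.8 with DMSO. The groups lay far apart, and library A125, the lowest, held a single IL1A read. This was a log2 fold change of 3.63 ± 0.44 (SE; limma adjusted p = 1.94e-06), 12.4-fold on the log2(value + 1) scale, and 2.97 without A125. In bulk RNA a rise in every cell and a rise in the number of cells that make the transcript cannot be told apart. With palbociclib the libraries held 3.32, 4.38 and 2.66 normalized counts, or 3, 4 and 3 reads. All 3 lay below every DMSO library, and they overlapped proliferating cells only through A125. Against proliferating cells the log2 difference was -0.22 with a 95% confidence interval of -1.15 to 0.71 (limma adjusted p = 0.663), but without A125 it was -0.88 and called (adjusted p = 0.0138). Leaving out A126 or A127 gave 0.07 and 0.16, not called (0.897 and 0.768). Quantile normalization also called this difference (-0.87, limma adjusted p = 0.0319). Against DMSO the log2 fold change was -3.85 ± 0.44 (limma adjusted p = 4.43e-06), 14.4-fold lower. A pseudocount of 5 in place of 1 gave 2.81 for DMSO against proliferating cells and -3.00 for palbociclib against DMSO, still called. With ruxolitinib IL1A stood at 48.6, 36.9 and 55.0, below every DMSO library and well above every proliferating one. The difference from DMSO was -0.43 on the log2 scale with a 95% confidence interval of -1.36 to 0.51 (limma adjusted p = 0.715), an interval that holds both no change and a fall of over 2-fold.

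IL1B encodes interleukin-1β, the secreted form that depends on caspase-1. It lies next to IL1A on the same strand, 45257 bases upstream on chromosome 2 at 112829751 to 112836816. Its promoter is printed beside that of IL1A because both transcripts fell with palbociclib. The capitals mark a C/EBP match (TTGCNNAA) at -215 to -208 and a STAT match (TTCNNNGAA) at -180 to -172.
IL1B, GRCh38.p14, chr2:112836780-112837029, minus strand: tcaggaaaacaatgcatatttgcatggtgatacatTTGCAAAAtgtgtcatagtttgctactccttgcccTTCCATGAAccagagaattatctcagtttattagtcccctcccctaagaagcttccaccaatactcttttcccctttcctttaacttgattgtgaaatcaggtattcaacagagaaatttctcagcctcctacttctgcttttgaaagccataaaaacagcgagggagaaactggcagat

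IL1B stood at 6.23, 23.3 and 20.9 normalized counts in proliferating libraries and at 73.2, 93.5 and 93.7 with DMSO. Every DMSO library lay above every proliferating one, of which A125 was again the lowest. Their log2 fold change was 2.48 ± 0.40 (limma adjusted p = 4.82e-05), 5.57-fold. With palbociclib the values were 6.64, 3.28 and 10.7, all far below DMSO. The log2 fold change against DMSO was -3.59 ± 0.40 (limma adjusted p = 4.00e-06). Against proliferating cells, palbociclib-treated cells held less IL1B, at a log2 fold change of -1.11 ± 0.40 (limma adjusted p = 0.0215), although the groups overlapped through A125. IL1B was the only one of the 6 genes called in that comparison, where 73.8% of all genes tested were called, 35.2% higher and 38.6% lower. The call was lost without library A126 (adjusted p = 0.0949), A127 (0.0922) or A120 (0.0984), and its adjusted p ran from 3.29e-04 to 0.0984 over all alternatives tried. With ruxolitinib IL1B stood at 118.8, 104.4 and 124.5. All 3 values lay above every DMSO library, but the log2 difference of 0.42 had a 95% confidence interval of -0.44 to 1.28 and was not called (limma adjusted p = 0.693). A fit to the DMSO and ruxolitinib libraries alone called it higher (adjusted p = 0.0377), while the other alternatives did not and ran up to 0.871.

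The balance of the ligand pair differed between groups. Within a library, IL1A reads were 0.919, 0.671 and 0.617 times IL1B reads with DMSO and 0.409, 0.353 and 0.442 times with ruxolitinib. Every DMSO library had a higher ratio than every ruxolitinib library. In proliferating cells the ratio was 0.167, 0.286 and 0.364, from only 1, 6 and 8 IL1A reads over 6, 21 and 22 IL1B reads. With palbociclib it was 0.50, 1.33 and 0.25, a spread that rests on 3 to 12 reads per gene. These ratios are per read and not per transcript length, and they are given as a description without a test.

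**Figure D2:**
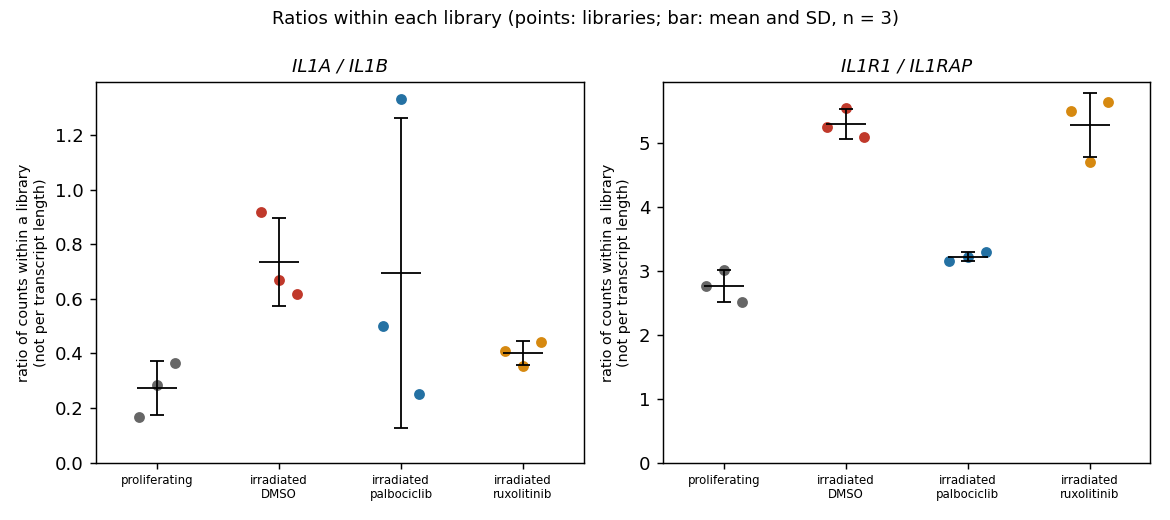
Ratio of read counts within each library (vertical axes, not per transcript length) for IL1A over IL1B and IL1R1 over IL1RAP, by group. Points are libraries and bars the mean and SD of 3 libraries. DMSO lies above ruxolitinib for the ligands, and DMSO and ruxolitinib lie above the other groups for the receptor subunits.

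IL18 encodes interleukin-18, which is also cut by caspase-1 and is best known for inducing interferon-γ in lymphocytes. The gene lies on chromosome 11 at 112143253 to 112164096, on the minus strand. It was low throughout, at 6.23, 8.87 and 12.4 normalized counts in proliferating cells and 20.8, 28.4 and 25.4 with DMSO. The groups did not overlap, and the log2 fold change was 1.38 ± 0.34 (limma adjusted p = 0.00173). With palbociclib it stood at 15.5, 8.76 and 9.77, below every DMSO library, and with ruxolitinib at 27.8, 14.4 and 19.9, which overlapped DMSO. The log2 fold change for palbociclib against DMSO was -1.10 ± 0.34 (limma adjusted p = 0.0146). It was not called without A117 (adjusted p = 0.0536) or A120 (0.0529), within a range of 0.00394 to 0.231 over all alternatives. Quantile normalization, which forces all libraries onto one distribution, left IL18 uncalled both for DMSO against proliferating cells (log2 0.42, adjusted p = 0.291, from 4.84e-04 upward in the other alternatives) and for palbociclib against DMSO (-0.53, adjusted p = 0.231). For ruxolitinib against DMSO the log2 difference was -0.29 with a 95% confidence interval of -1.01 to 0.43 (limma adjusted p = 0.753).

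IL33 and IL1RN were below the minimum for testing. IL33 encodes interleukin-33, a nuclear cytokine released by damaged cells, and lies on chromosome 9 at 6215786 to 6257983, on the plus strand. No IL33 read was found in the 3 proliferating libraries, where a count of 0 allows up to 3 reads. With DMSO the libraries held 6, 10 and 4 reads (5.94, 11.8 and 4.63 normalized counts), at least 2.41-fold higher than a floor of 3 reads in each proliferating library. With ruxolitinib there were 10, 8 and 12 reads, and with palbociclib 0, 0 and 4. The palbociclib values lay below those of DMSO, while the ruxolitinib values overlapped them. Palbociclib library A121 (3.55) and DMSO library A118 (4.63) both held 4 reads and differed only through the factor per library. IL1RN encodes the receptor antagonist and lies beyond IL1B on chromosome 2 at 113099315 to 113134016, on the plus strand. It had 0, 1 and 0 reads in proliferating cells, 5, 2 and 2 with DMSO, 0 in all 3 palbociclib libraries and 6, 3 and 9 with ruxolitinib. In a limma fit of 15125 genes without the minimum, both genes were called lower with palbociclib than with DMSO (adjusted p = 0.00339 for IL33 and 0.00183 for IL1RN). In that fit 37.2% of all genes were called, 2825 higher and 2799 lower. Counts this low give no reliable size of change. The floor of 3 reads covers counting error only, while the limma intervals given for tested genes rest on the spread between libraries. In the same fit neither was called for ruxolitinib against DMSO (adjusted p = 0.891 and 0.685), where 2.92% of all genes were called.

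IL1R1, the signalling receptor, was far from the detection limit. It lies on chromosome 2 at 102064544 to 102179874 on the plus strand, and 11 of its exonic bases overlap the antisense gene IL1R1-AS1. IL1R1 stood at 907, 840 and 982 normalized counts in proliferating libraries, 1609, 1704 and 1693 with DMSO, 1065, 923 and 1017 with palbociclib, and 1391, 1323 and 1396 with ruxolitinib. DMSO was highest and ruxolitinib next, with no overlap between them, while the palbociclib and proliferating libraries overlapped. DMSO exceeded proliferating cells by 0.88 ± 0.07 on the log2 scale (limma adjusted p = 1.04e-08), 1.84-fold. With palbociclib the change was -0.74 ± 0.07 against DMSO (limma adjusted p = 4.14e-07). That left a difference of 0.14 from proliferating cells, with a 95% confidence interval of -0.004 to 0.28 (limma adjusted p = 0.0735). It was called higher without A127 (adjusted p = 0.0211) or A120 (0.0132), and by edgeR (0.0238) and DESeq2 (0.0255). Scaling by upper quartile (0.00309) or quantiles (0.00167) also called it, within 0.00167 to 0.28 over all alternatives. For ruxolitinib the log2 fold change against DMSO was -0.28 ± 0.07 (limma adjusted p = 0.0233), 1.22-fold lower. That call was lost when any one of the 6 libraries was left out (A116 to A118 and A122 to A124, adjusted p 0.0515 to 0.119), with the log2 fold change between -0.31 and -0.26. Over all alternatives its adjusted p ran from 1.59e-05 to 0.119.

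IL1RAP, the co-receptor shared by the receptors for interleukin-1, interleukin-33 and interleukin-36, lies apart from the others on chromosome 3 at 190514051 to 190659750. It stood at 329, 278 and 391 normalized counts in proliferating cells, 307, 307 and 332 with DMSO, 338, 287 and 308 with palbociclib, and 253, 281 and 247 with ruxolitinib. The first 3 groups overlapped, and the ruxolitinib libraries lay below every DMSO library. DMSO differed from proliferating cells by -0.07 on the log2 scale, with a 95% confidence interval of -0.30 to 0.17 (limma adjusted p = 0.601). Its sign turned under 3 other scalings, by total (0.16), upper quartile (0.09) and quantiles (0.06). Palbociclib differed from DMSO by -0.02, with an interval of -0.26 to 0.21 (limma adjusted p = 0.886), and the sign turned with quantiles (0.05). Over all alternatives this difference ran from -0.25 to 0.05, with adjusted p from 0.0593 to 0.933. Ruxolitinib differed from DMSO by -0.28, with an interval of -0.51 to -0.04 before adjustment, and was not called (limma adjusted p = 0.219), except in a fit of those 2 groups alone (0.0201, with up to 0.511 in the other alternatives). Within a library, IL1R1 reads were 5.25, 5.56 and 5.10 times IL1RAP reads with DMSO and 5.50, 4.71 and 5.65 times with ruxolitinib. The ratio was 2.76, 3.02 and 2.51 in proliferating cells and 3.15, 3.22 and 3.30 with palbociclib. The DMSO and ruxolitinib libraries overlapped each other and lay above all 6 others.

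IL1RL1 encodes ST2, which exists as a membrane receptor for interleukin-33 and as a shorter soluble form that traps it. The table gives 1 value per gene, so the forms were not separated. The gene lies on chromosome 2 at 102311502 to 102352037 on the plus strand, 131688 bases from IL1R1. It shares 95 exonic bases (1.65%) with IL18R1 on the same strand. RefSeq gives it starts far apart, and the bases before 2 of them are shown because IL1RL1 changed under both inhibitors and reads cannot be assigned to a start. The capitals mark a TATAAA at -29 to -24 in the distal window and an AP-1 match at -191 to -185 in the proximal one.
IL1RL1 distal start, GRCh38.p14, chr2:102311313-102311562, plus strand: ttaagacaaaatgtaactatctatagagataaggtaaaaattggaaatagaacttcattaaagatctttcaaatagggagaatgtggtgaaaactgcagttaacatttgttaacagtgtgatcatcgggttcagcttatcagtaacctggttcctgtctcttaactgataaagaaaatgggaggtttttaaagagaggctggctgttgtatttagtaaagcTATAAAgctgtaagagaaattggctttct
IL1RL1 proximal start, GRCh38.p14, chr2:102337007-102337256, plus strand: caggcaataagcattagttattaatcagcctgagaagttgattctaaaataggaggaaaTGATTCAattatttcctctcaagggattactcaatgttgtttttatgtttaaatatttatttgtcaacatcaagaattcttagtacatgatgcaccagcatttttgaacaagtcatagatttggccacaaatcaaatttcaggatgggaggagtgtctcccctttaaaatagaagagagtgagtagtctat

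IL1RL1 stood at 8.30, 6.65 and 9.52 normalized counts in proliferating libraries and 53.5, 74.6 and 74.0 with DMSO. Every DMSO library lay far above every proliferating one. The log2 fold change was 2.90 ± 0.30 (limma adjusted p = 3.36e-07), 7.44-fold. With palbociclib it stood at 5.53, 6.57 and 3.55, and with ruxolitinib at 29.3, 19.8 and 33.4. The 4 groups did not overlap in normalized counts: DMSO was highest, then ruxolitinib, proliferating cells and palbociclib. The last 2 groups were barely apart. Proliferating library A126 (6.65) and palbociclib library A120 (6.57) both held 6 reads and differed only through the factor per library. Palbociclib gave a log2 fold change of -3.47 ± 0.30 against DMSO (limma adjusted p = 2.20e-07), 11.1-fold lower. It did not pass against proliferating cells (log2 difference -0.58, 95% confidence interval -1.22 to 0.06, limma adjusted p = 0.0931). Quantile normalization (-0.95, limma adjusted p = 0.0104) and limma without a trend (0.0463) called it lower, within 0.0104 to 0.294 over all alternatives. Ruxolitinib gave -1.28 ± 0.30 against DMSO (limma adjusted p = 0.0221), 2.42-fold lower. That call was lost without A117 (adjusted p = 0.108), A118 (0.111), A122 (0.0714) or A123 (0.126), with log2 fold changes of -1.20, -1.20, -1.34 and -1.07. Over all alternatives its adjusted p ran from 1.10e-04 to 0.126.

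**Figure D3:**
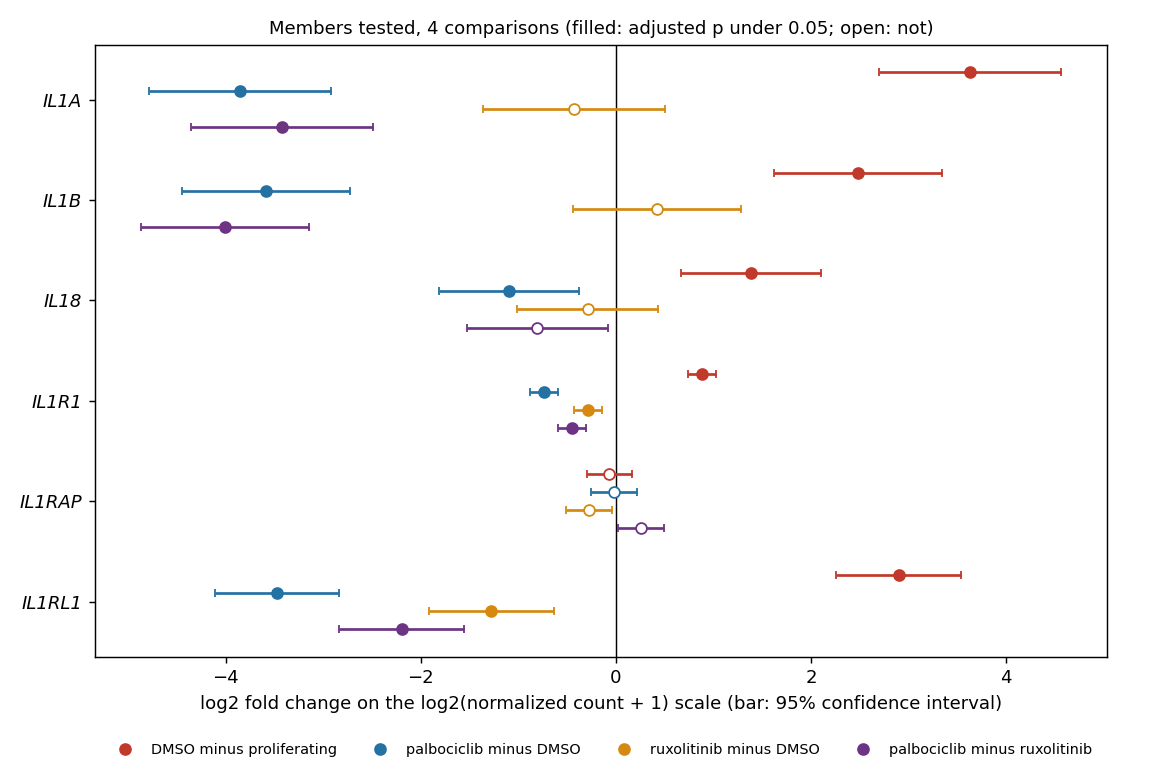
Log2 fold change (axis on the log2(normalized count + 1) scale) of the 6 tested genes in 4 comparisons, with 95% confidence intervals. Filled points passed an adjusted p under 0.05. For IL1A, IL1B, IL1RL1, IL1R1 and IL18 the DMSO points lie above 0 and the palbociclib points below it, and ruxolitinib against DMSO passed for IL1RL1 and IL1R1.

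The inhibitors were given at the same concentration and on the same days, so they can be set against each other directly, although they act on different kinases. Between palbociclib and ruxolitinib, 4 of the 6 genes were called, all lower with palbociclib, where 40.4% of genes were called, 22.8% higher and 17.6% lower. The log2 fold change was -4.01 for IL1B (limma adjusted p = 1.69e-06), -3.42 for IL1A (1.91e-05), -2.20 for IL1RL1 (3.42e-05) and -0.45 for IL1R1 (7.77e-05). No palbociclib library reached the level of any ruxolitinib library for these 4 genes. IL18 differed by -0.80, with a 95% confidence interval of -1.52 to -0.09 before adjustment, and was not called (limma adjusted p = 0.0696), but it was without A119 (0.0337) or A123 (0.0463), within 0.0233 to 0.615 over all alternatives. IL1RAP was 0.25 higher and not called (limma adjusted p = 0.0792), but quantile normalization called it (0.30, adjusted p = 0.0485). Over all alternatives the IL1RAP difference ran from 0.05 to 0.31. Between ruxolitinib and proliferating cells, all 6 genes were called, where 72.2% of genes were called, 32.6% higher and 39.5% lower. IL1A (log2 3.20), IL1B (2.90), IL1RL1 (1.62), IL18 (1.09) and IL1R1 (0.59) were higher and IL1RAP (-0.34) lower. The IL18 call was lost without A122 (adjusted p = 0.0554, within 0.0028 to 0.729 over all alternatives). The IL1RAP call was lost without A127 (0.076) or with any of 3 other scalings (0.125 to 0.252), within 7.88e-04 to 0.252. IL1A was 2.54 higher without A125.

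IL1B, IL1RN and IL1RL1 are also transcribed by leukocytes, and IL1RL1 and IL33 by endothelium. Of 8 leukocyte markers, CD14, CSF1R and KIT exceeded a mean of 10 normalized counts. The list summed to 138.6 to 152.4 in proliferating cells, 215.5 to 299.5 with DMSO, 197.0 to 280.0 with palbociclib and 290.1 to 331.4 with ruxolitinib, most of it KIT. Smaller markers differed from that sum. CD14 averaged 4.03 normalized counts in proliferating cells, and 28.2, 13.01 and 15.96 in the DMSO, palbociclib and ruxolitinib groups. In the same order CSF1R averaged 9.16, 20.2, 7.51 and 26.1, and ITGAM 0.37, 8.78, 3.02 and 11.5. All 3 were thus higher with DMSO than in proliferating or palbociclib-treated cells, as IL1B was. No marker was at 0 in every library, but defining ones were near it: PTPRC, the pan-leukocyte CD45 gene, had group means of 0.66 to 4.47, and CD3E, a T cell marker, had 0 to 1.503. Of 6 endothelial markers, VWF and TEK exceeded the minimum. TEK made up most of a sum of 1681 to 1949 in proliferating cells, 2394 to 2558 with DMSO, 3503 to 4381 with palbociclib and 2250 to 2256 with ruxolitinib, and CDH5 had group means of 0 to 1.16. PECAM1 averaged 2.07, 10.7, 5.45 and 12.9 in proliferating, DMSO, palbociclib and ruxolitinib cells, and KDR 0.35, 9.20, 2.14 and 5.36. Both were higher with DMSO than in proliferating or palbociclib-treated cells, as IL1RL1 and IL33 were. The endothelial markers above the minimum were instead higher with palbociclib. TEK averaged 2422 with DMSO and 3957 with palbociclib, and VWF 19.1 and 21.2. CLDN5 (3.73 and 1.40) and CDH5 (0.39 and 0) were lower with palbociclib. Of 8 epithelial markers, EPCAM, KRT8, KRT18 and KRT19 exceeded the minimum, and the list was highest with palbociclib (3620 to 4239, against 1803 to 2054 with DMSO). The part of other cell types in the interleukin-1 results was not tested.

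Other members of the family were mostly near the detection limit. Of 14 listed, 5 were tested. Between DMSO and proliferating cells, 3 were higher: IL1RL2, the interleukin-36 receptor (log2 fold change 1.66), IL1RAPL1, a synaptic relative of the co-receptor (1.09), and IL18BP, a secreted trap for interleukin-18 (0.67). Over all genes tested, 33.0% were called higher there and 39.3% lower. Between palbociclib and DMSO, IL1RAPL1 (-1.65), IL18R1, the interleukin-18 receptor (-1.05), and IL18BP (-0.56) were lower. In that comparison 22.3% of all genes tested were called lower and 26.0% higher. None of the 5 was called between ruxolitinib and DMSO by limma, edgeR or DESeq2, and 0 had an unadjusted p under 0.05. Of all genes tested, limma called 4.52% there. The list's median log2 fold change was 0.67, -0.56 and -0.07 in these comparisons, against -0.05, 0.02 and -0.003 over all genes. The 3 receptor genes that follow IL1R1 along chromosome 2 differed in pattern. IL1RL2 averaged 10.5 normalized counts in proliferating cells, then 33.7, 27.6 and 31.4 in the DMSO, palbociclib and ruxolitinib groups. IL1RL1, the next gene, averaged 8.16, 67.35, 5.22 and 27.5 in the same order. IL18R1, which follows it, averaged 51.8, 42.6, 19.8 and 41.6 and was not called between DMSO and proliferating cells (log2 -0.29, limma adjusted p = 0.22). The decoy receptor IL1R2, on the other side of IL1R1, averaged 0.32, 5.17, 0.89 and 3.56. Between IL1B and IL1RN, IL37, IL36G, IL36A, IL36B, IL36RN and IL1F10 had group means of at most 4.42.

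Transcripts of the proteins that carry the signal inward from the receptor were called in both directions. Of 16 tested, 6 were higher and 8 lower in DMSO than in proliferating cells, where 72.4% of all genes were called. IRAK2, a kinase that sustains the response, rose from 219 ± 9.6 to 541 ± 11.5 normalized counts (SD, n = 3; log2 fold change 1.30), TOLLIP, a brake on the receptor complex, by 0.76, and the adaptor MYD88 by 0.53. PELI2, a ubiquitin ligase (-1.40), TIFA, a TRAF6-binding adaptor (-1.10), and the kinase IRAK1 (-0.76) were lower. Scaling by total called 9 of the 16 in place of 14, and 73.3% of all genes. Between palbociclib and DMSO, 2 were higher (MAP3K7, the kinase TAK1, at 0.20, and TOLLIP at 0.17) and 6 lower, led by PELI2 (-1.74), IRAK2 (-0.99) and IRAK3 (-0.83), an inhibitory relative of the IRAK kinases. That is 8 of 16, near the 48.3% of all genes called there. Between ruxolitinib and DMSO, MYD88 (-0.81, limma adjusted p = 2.71e-07) and TIFA (-0.55, 0.0227) were lower and the other 14 were not called. Of all genes tested, 4.52% were called there. Without A116, A117, A118, A122 or A123, 1 of the 16 was called. MYD88 averaged 1155 normalized counts with DMSO and 798 in proliferating cells, against 746 and 660 in the palbociclib and ruxolitinib groups. The list medians were -0.18, -0.12 and -0.07 in the 3 comparisons, against -0.05, 0.02 and -0.003 over all genes.

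Of 14 tested genes for cutting and releasing the ligands, 2 were higher and 4 lower between DMSO and proliferating cells, where 33.0% of all genes were called higher and 39.3% lower. NLRC4, an inflammasome sensor, and P2RX7, the ATP-gated channel that triggers release, were both higher by 1.07, and HAX1, an interleukin-1α binding protein (-0.55), CARD8 (-0.37), an inflammasome sensor, and GSDME (-0.30), a pore-forming protein, were lower. P2RX7 averaged 7.70 normalized counts in proliferating cells and reached the minimum for testing only through the other groups, where it was higher. CASP1, the interleukin-1β-converting enzyme, did not pass between DMSO and proliferating cells (log2 -0.01, limma adjusted p = 0.951). It averaged 266 ± 29.4 normalized counts (SD, n = 3) in proliferating cells and 264 ± 17.1 with DMSO. The palbociclib group averaged 77.0 ± 4.5 and the ruxolitinib group 139 ± 14.4. CASP1 was thus lower than DMSO with palbociclib (-1.76, limma adjusted p = 6.90e-09) and with ruxolitinib (-0.92, 7.27e-05). It was also lower with palbociclib than with ruxolitinib (-0.84, 2.80e-05). Between palbociclib and DMSO, 4 genes were lower and 4 higher, where 22.3% of all genes tested were called lower and 26.0% higher. CARD16, a caspase-1 regulator (-0.73), and PYCARD, the inflammasome adaptor ASC (-0.65), were among the lower ones. The higher genes included HAX1 (0.49), the protease subunit CAPN2 (0.37), of the calpain class that cuts interleukin-1α, and GSDME (0.24). Between ruxolitinib and DMSO, CASP1 and CASP4 (-0.42), a caspase of the non-canonical inflammasome, were lower and none was higher, where 2 were higher at an unadjusted p under 0.05, 0 by edgeR and 1 by DESeq2. Of all genes tested, 3.42% were called lower there and 1.1% higher. The list medians were -0.04, -0.11 and 0.01, against -0.05, 0.02 and -0.003 over all genes.

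Among 30 genes chosen as known targets of interleukin-1 signalling, 26 were tested. Many answer to other signals too, and they overlap genes long described in senescent cells. Between DMSO and proliferating cells, 24 were higher and none lower in limma, and 0 were lower by edgeR, by DESeq2 or at an unadjusted p under 0.05. Over all genes tested, 33.0% were called higher there and 39.3% lower. The list median was 1.47, also with 3 genes near 0 in proliferating cells set at their lower bound, against -0.05 over all genes. CXCL1, a neutrophil chemokine, averaged 3.66 and 136 normalized counts (log2 5.30), and CXCL8, the chemokine interleukin-8, 72.1 and 1691 (log2 4.54). CCL20, at 3 reads or fewer in each proliferating library, was at least 10.7-fold higher with DMSO. Between palbociclib and DMSO, 21 were lower and 1 higher, where 22.3% of all genes tested were called lower and 26.0% higher. The list median was -1.48 (the same with CCL20 at its bound of at least 10.7-fold lower), against 0.02 over all genes. CXCL1 (-4.14), CXCL3 (-3.67) and CXCL5 (-3.30) led, and the exception was VCAM1 (0.59), an adhesion molecule. Between ruxolitinib and DMSO, 4 were lower and LIF (0.29) was higher, where 3.42% of all genes tested were called lower and 1.1% higher. The list median was -0.23, against -0.003 over all genes. The lower ones included TNFAIP3, the NF-κB inhibitor A20 (-0.68), PTGS2, the prostaglandin-forming enzyme COX-2 (-0.55), and ICAM1, an adhesion molecule (-0.42). When any one of those 6 libraries (A116 to A118, A122 to A124) was left out, 2 or 3 of the 26 were called in place of 5. Directly between palbociclib and ruxolitinib, 22 were lower with palbociclib and ICAM1 (0.27) was higher, with a median of -1.11. Over all genes tested, 17.6% were called lower there and 22.8% higher. Against proliferating cells, 13 of the 26 were higher with palbociclib and 7 lower, where 35.2% of all genes tested were called higher and 38.6% lower. VCAM1 and ICAM1 led the higher ones, and TNFAIP6, MMP1 and TNFAIP3 the lower. The 13 include CCL20, which had at most 3 reads in every library of both groups, so no fold is given for it.

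**Figure D4:**
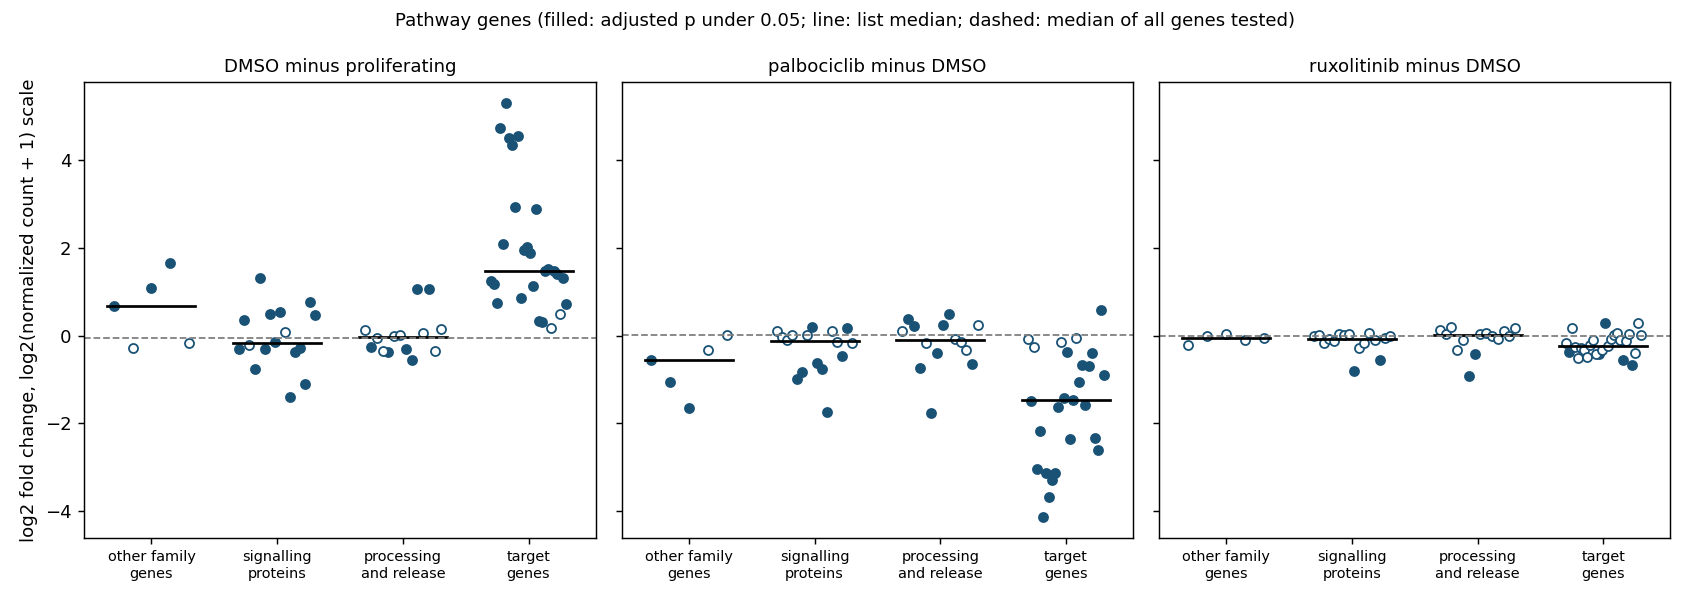
Log2 fold changes (vertical axis, log2(normalized count + 1) scale) of the tested genes in 4 lists (horizontal axis) for 3 comparisons. Filled points passed an adjusted p under 0.05, solid lines are list medians and dashed lines the median of all genes tested. Target genes lie mostly above 0 for DMSO against proliferating cells and mostly below 0 for palbociclib against DMSO, while the signalling list spreads to both sides.

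The genes whose values followed each member most closely over the 12 libraries were found by Pearson's r on log2 values, among tested genes with a mean of at least 50. The closest to IL1A were DDB2 (r = 0.972), HMOX1 (0.967) and PER1 (0.964). Those of IL1B were XPC (0.970), PLK2 (0.958) and ZSWIM1 (0.957), all different from those of IL1A. IL1R1 was followed by TRANK1 (0.992), TRPA1 (0.990) and PDE4B (0.979). The 3 closest to IL1RL1 were PTGS2 (0.969), TRPA1 (0.967) and CNNM4 (0.966), and those of IL18 were TRANK1 (0.914), IL1R1 (0.912) and RNF6 (0.912). IL1RAP had NECTIN3 (0.912), USP25 (0.910) and SCYL2 (0.909). These values describe points that share libraries and fall into 4 groups, and no test is given.

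RefSeq gave 15 promoter windows for 7 of the 8 genes, and IL18 was not matched. Each window held 250 bases before to 50 after a start and was searched on both strands. AP-1 matches (TGANTCA) were found in 4 of the 15, namely both overlapping IL1A windows, 1 of IL1RN and 1 of IL1RL1, against 7.71% of 35116 windows of all genes. STAT matches (TTCNNNGAA) were in 3 (IL1B, IL1R1 and IL33), against 7.66%, and C/EBP matches (TTGCNNAA) in 2 (IL1B and IL1R1), against 10.5%. The interferon response element ISRE was in 2 overlapping IL1RN windows, against 3.57%, and TATAAA in 4 (IL1A, IL1RN, IL1R1 and IL1RL1), against 11.5%. The NF-κB motif, searched by its consensus, was in none of the 15 windows and in 5.91% of all. AP-1 and STAT matches read alike on both strands and were counted once, and 2 overlapping TATAAA matches on opposite strands of IL1RN also counted once. A match is a run of letters, not a measured site.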

How the data were processed

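Gene expression was measured by poly(A) RNA sequencing, per the labels' protocols, with TRIzol extraction. The submitters' processing notes name Trimmomatic 0.38.1, HISAT2 2.2.1, featureCounts 2.0.3, FastQC 0.74, MultiQC, DESeq2 2.11.40.8 and the builds hg38 and GRCh38. Whether counting used strand is not given in the sources used here. The authors deposited normalized counts, a signal of reads divided by a factor per library. All 160380 values above 0 were whole reads at a tolerance of 0.01. The table ended at Entrez gene 140467, and genes beyond it were not analysed here.

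Columns were assigned to groups by name. No replicate pair agreed within counting noise (12 pairs). limma 3.58.1 (R 4.3.3) was fitted to log2(value + 1), a pseudocount of 1, which understates changes of low genes. It used 4 group means, a variance trend, genes with a mean of at least 10 (11242) and Benjamini-Hochberg adjustment over all of them per comparison. The method was tested on simulated data. A fold against a group with at most 3 reads in each library is a lower bound against 3 reads. The self-made lists held 14 other family genes, 17 signalling genes (TAB3 not analysed here), 18 processing and release genes and 30 target genes, of which up to 3 called genes per direction and comparison with the largest changes are named. Other genes named are markers, chromosomal neighbours and nearest patterns. The members and lists were chosen with earlier results of these data known. Positions are from GENCODE v44 and promoters from RefSeq (GRCh38.p14). Alternatives were pseudocounts of 0.1 and 5, no minimum and a minimum of 50, 3 other scalings, no trend, fits restricted to the 2 groups in question, omission of each library, and, on the recovered reads, edgeR 4.0.16 (quasi-likelihood, TMM) and DESeq2 1.42.0.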

Additional observations from a re-analysis of the deposited data

How the results depend on the processing

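No paired analysis was possible because the columns carry no replicate numbers. Of 594 recomputed fold changes of single genes, 537 kept direction and side of the threshold, 25 lost the call, 19 gained it and 13 turned sign, all of the last in differences that were not called. These were IL1RAP for DMSO against proliferating cells (same total 0.16, upper quartile 0.087, quantiles 0.056, range without 1 library -0.19 to 0.057), for palbociclib against DMSO (quantiles 0.046, without 1 library -0.083 to 0.035) and for palbociclib against proliferating cells (upper quartile 0.0040, quantiles 0.10, without 1 library -0.21 to 0.036), IL1A for palbociclib against proliferating cells (without 1 library -0.88 to 0.16) and IL18 there (quantiles -0.11).

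A minimum mean of 50 leaves out the low genes by construction, so of the members only IL1B, IL1R1 and IL1RAP were tested. The share of all genes called under the same setting is given in brackets. Then 2 of the members were called for DMSO against proliferating cells (74.1%), 2 for palbociclib against DMSO (50.4%) and 1 for ruxolitinib against DMSO (4.95%). For palbociclib against ruxolitinib 2 were called (42.3%), and for ruxolitinib against proliferating cells 3 (74.2%). For ruxolitinib against DMSO, 1 was called without a trend (3.69%) and 4 in the fit of the 2 groups (16.4%). Without 1 library, 0 to 1 were called (2.32% to 2.62%). For palbociclib against proliferating cells, 2 were called at the same upper quartile (73.5%), 4 with quantiles (72.0%) and 2 without a trend (72.8%). The fit of the 2 groups called 0 (67.4%), edgeR 2 (73.6%) and DESeq2 2 (72.7%), and 0 to 2 were called without 1 library (69.8% to 73.3%). Without 1 library the other counts were 5 for DMSO against proliferating cells (68.5% to 71.2%) and 5 to 6 for ruxolitinib against proliferating cells (67.9% to 71.6%). They were 4 to 5 for palbociclib against DMSO (40.3% to 49.5%) and against ruxolitinib (32.0% to 42.5%). The causes were not tested. Of 408 recomputed list counts, 377 stayed within 1.5 times. For ruxolitinib against DMSO the fit of the 2 groups called 9 target genes in place of 5 and 5 processing genes in place of 2. For palbociclib against ruxolitinib, scaling by total called 10 processing genes in place of 5, and 47.8% of all genes.

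Over all genes, edgeR and DESeq2 called 556 and 648 for ruxolitinib against DMSO, limma 508, and limma on those 2 groups alone 1841. Scaling to the same total moved the median gene by 0.227 (log2) for DMSO against proliferating cells, -0.225 for palbociclib against DMSO, -0.201 for palbociclib against ruxolitinib and 0.204 for ruxolitinib against proliferating cells. The share of calls that were higher went from 45.7% to 64.0%, from 53.9% to 15.4%, from 56.4% to 15.7% and from 45.2% to 61.6%. Low counts limit IL1RN, IL33, IL18 and, outside DMSO and ruxolitinib cells, IL1A, IL1B and IL1RL1.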
